A study of Homo sapiens with 16 samples.

Results

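The genes described here are 41 interferon-stimulated and RNA-sensing genes, chosen by name from 67938 gene identifiers in 2 deposited count tables, and all 41 were found in both tables. They include the cytosolic sensors IFIH1 and RIGI, the transcription factors STAT2, IRF1, IRF7 and IRF9, the IFIT, OAS and MX antiviral families, the ISG15 modifier with its enzymes, and a group around PARP9, DTX3L and PARP14. RNA had been sequenced from the cytoplasm and the nucleus of 2 human liver cancer cell lines, HepG2, which keeps many hepatocyte traits, and SNU-449. Cells of each line had been transfected for 48 h with NC, a control siRNA, or with siPANAD-1 and siPANAD-2 mixed, aimed at PANAD, the product of C7orf25, which the series title ties to the mRNA export receptor NXF1. Each of the 8 combinations of line, fraction and siRNA had 2 libraries, described in the series text as biological duplicates. Every library came from siRNA-transfected cells, so the comparison is of 1 siRNA mixture with 1 control siRNA, and effects of the loss of PANAD and of the siRNA sequences themselves cannot be told apart.

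When a cell meets double-stranded or uncapped RNA in its cytosol, sensors such as RIG-I and MDA5 signal through the adaptor MAVS to the factors IRF3, IRF7 and NF-kB, which switch on interferon genes. Secreted interferon acts through its receptors and JAK kinases to assemble ISGF3, a complex that includes STAT2 and IRF9 and binds the interferon-stimulated response element (ISRE) in the promoters of most of the genes described here. IRF1 binds overlapping sites, and interferon-responsive promoters can hold a second element, GAS, so that several of these genes can also be driven without ISGF3. In liver cells the same genes are known from hepatitis virus infection and from interferon treatment.

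Promoter sequences are shown first, since many of these genes, which were chosen by name, share the ISRE. RefSeq promoter windows (GRCh38.p14, from 250 bases before to 50 bases after a start) were matched for 35 of the 41 genes. The ISRE core, searched on both strands as GAAA, any 2 bases and GAAA, stood in at least 1 window of 23 of these 35 genes (65.7%), against 1195 of 27305 genes with a window of the same length (4.38%). The GAS letters TTCNNNGAA, which read the same on both strands, stood in windows of 10 of the 35 (28.6%), against 9.38% of all genes. A match says only that these letters occur. The 250 bases before the start are given for 6 genes that were higher with siPANAD in the cytoplasm of both lines and hold the core, and for UBE2L6, which was higher in both lines and has no match in its window. Each is read 5′ to 3′ along the gene, with every ISRE core in capitals (TTTC first where the core lies on the other strand). Their positions are chr10:89327747-89327996 for IFIT3, chr10:89392373-89392622 for IFIT1 and chr1:1013247-1013496 for ISG15, all on the plus strand. On the minus strand are chr7:93117980-93118229 for SAMD9, chr4:168318753-168319002 for DDX60, chr3:122564301-122564550 for PARP9 and chr11:57567936-57568185 for UBE2L6.
IFIT3: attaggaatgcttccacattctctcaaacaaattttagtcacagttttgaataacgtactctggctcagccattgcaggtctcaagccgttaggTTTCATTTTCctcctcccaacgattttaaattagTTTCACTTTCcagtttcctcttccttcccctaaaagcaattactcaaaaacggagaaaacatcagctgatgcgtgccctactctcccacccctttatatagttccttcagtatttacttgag
IFIT1: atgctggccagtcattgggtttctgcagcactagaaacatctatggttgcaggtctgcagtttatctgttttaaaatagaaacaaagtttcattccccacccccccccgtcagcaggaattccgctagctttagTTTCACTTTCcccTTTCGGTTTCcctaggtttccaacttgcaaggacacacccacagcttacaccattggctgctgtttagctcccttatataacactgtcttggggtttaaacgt
ISG15: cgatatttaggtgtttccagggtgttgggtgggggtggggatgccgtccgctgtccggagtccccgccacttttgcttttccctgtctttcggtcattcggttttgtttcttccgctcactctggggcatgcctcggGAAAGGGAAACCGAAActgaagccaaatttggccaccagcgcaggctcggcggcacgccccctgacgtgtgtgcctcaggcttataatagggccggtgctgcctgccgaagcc
SAMD9: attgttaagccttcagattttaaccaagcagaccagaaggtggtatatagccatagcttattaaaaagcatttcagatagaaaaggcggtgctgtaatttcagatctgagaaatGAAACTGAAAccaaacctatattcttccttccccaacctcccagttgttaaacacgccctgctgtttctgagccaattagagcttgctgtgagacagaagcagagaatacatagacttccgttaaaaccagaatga
DDX60: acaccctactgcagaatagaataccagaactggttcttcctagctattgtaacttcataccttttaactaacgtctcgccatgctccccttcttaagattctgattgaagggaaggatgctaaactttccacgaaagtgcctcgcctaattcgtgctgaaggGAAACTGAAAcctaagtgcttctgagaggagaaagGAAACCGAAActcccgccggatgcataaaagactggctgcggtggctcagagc
PARP9: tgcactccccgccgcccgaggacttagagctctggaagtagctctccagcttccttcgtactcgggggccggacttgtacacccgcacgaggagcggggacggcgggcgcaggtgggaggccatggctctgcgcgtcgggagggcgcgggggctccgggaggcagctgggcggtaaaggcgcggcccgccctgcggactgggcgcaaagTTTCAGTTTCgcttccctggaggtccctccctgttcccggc
UBE2L6: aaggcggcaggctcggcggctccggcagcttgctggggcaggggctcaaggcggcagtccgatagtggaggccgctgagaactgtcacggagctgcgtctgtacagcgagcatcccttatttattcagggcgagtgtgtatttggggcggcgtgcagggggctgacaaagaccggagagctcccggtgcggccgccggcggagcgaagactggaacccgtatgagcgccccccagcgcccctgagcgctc

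In the ISG15 window 2 cores overlap, beginning at -113 and -107 from the start, and the stretches of IFIT3, IFIT1 and DDX60 hold 2 cores each. PARP9 and DTX3L are transcribed away from each other and their annotated gene bodies overlap by 340 bases, and 1 core lies in the windows of both. Further cores are shown with 10 bases on each side, read along the strand of the core, for genes with other response patterns. They are ISG20, higher in the cytoplasm of both lines (chr15:88638937-88638966, plus strand), BST2 and IFIH1, higher in both HepG2 fractions and the SNU-449 nucleus (chr19:17405741-17405770 and chr2:162318686-162318715, minus strand), and IFIT5, which went opposite ways in the fractions of SNU-449 (chr10:89414513-89414542, minus strand). The last is the stretch common to PARP9 and DTX3L (chr3:122564322-122564351, plus strand). Each stretch has only 1 core in capitals. In that of BST2 a second core, beginning at -124 from the start, overlaps the one in capitals, which begins at -130.
ISG20: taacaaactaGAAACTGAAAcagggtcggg
BST2: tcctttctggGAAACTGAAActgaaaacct
IFIH1: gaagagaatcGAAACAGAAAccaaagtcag
IFIT5: gtaagcttcaGAAACCGAAActtaatagaa
DTX3L: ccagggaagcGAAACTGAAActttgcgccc

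Levels are TMM-scaled counts relative to library size (CPM), 1 value for each of the 2 libraries of a group. An effect is a log2 fold change fitted with edgeR, printed with its SE. The SE is an approximate standard error, the absolute log2 fold change divided by the root of the F statistic of its test. A gene is called higher or lower where its adjusted p, over all genes tested, was under 0.05. Libraries held 16238235 to 30321908 counts, HepG2 cytoplasm NC replicate 2 being the deepest. The limit that a count of 0 allows, 3 counts, equals 0.0989 to 0.1847 CPM before TMM scaling. The MALAT1 and marker CPM in this paragraph are also before TMM scaling, unlike the levels of single genes given below. Intervals and such limits cover counting error only. MALAT1, a nuclear RNA, reached at most 5.84 CPM in any cytoplasmic library and at least 370.2 CPM in any nuclear one. C7orf25 had 0 to 7 counts in every library, too few to check the knockdown. A panel of 13 immune and blood cell markers summed in HepG2 to 361 and 509 CPM with NC and 314 and 293 CPM with siPANAD in the cytoplasm, and to 120 and 145 against 106 and 94.5 CPM in the nucleus. In SNU-449 the sums were 11.3 and 10.6 against 16.2 and 14.8 CPM, and 23.0 and 21.8 against 39.6 and 45.9 CPM. The defining markers PTPRC and CD3E had 0 to 2 counts in every library, and 4 to 10 of the 13 were at 0. LYZ, nearly all of the sum in HepG2, was lower with siPANAD there, and CD14 was higher in all 4 settings, by log2 fold changes of 1.95 and 1.77 in HepG2 cytoplasm and nucleus and 0.42 and 0.80 in those of SNU-449. In all, 3 of 6 tested markers were higher and 1 lower in the HepG2 cytoplasm, 4 and 1 in the HepG2 nucleus, and 2 of 2 higher in both SNU-449 fractions. Of all genes tested, 23.7% were called higher and 24.2% lower in the HepG2 cytoplasm, and 22.0% and 23.6% in the HepG2 nucleus. In SNU-449 these shares were 19.6% and 20.1% in the cytoplasm and 22.1% and 23.9% in the nucleus. The part of these markers in the results was not tested. The 9 hepatocyte markers summed to 23639 to 31465 CPM in HepG2 and to 19.8 to 277 CPM in SNU-449. A panel of 7 mesenchymal markers summed higher in HepG2 than in SNU-449 with NC. Its cytoplasmic sums were 3081 and 2699 CPM in HepG2 and 1644 and 1612 CPM in SNU-449. The nuclear sums were 7382 and 7464 CPM against 2755 and 2664 CPM. Between NC cytoplasms 4 of these 7 genes were called higher and 2 lower in SNU-449, against 34.3% and 36.9% of all genes. Since these are bulk samples, a change in RNA per cell and a change in the number of cells that carry it cannot be told apart.

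With siPANAD the 41 genes together held more of the RNA in all 4 settings. Their summed level before TMM scaling was 610.0 and 601.2 CPM in the HepG2 cytoplasm with NC and 955.8 and 908.4 CPM with siPANAD, and 828.3 and 800.4 against 1201.8 and 1171.3 CPM in the nucleus. In SNU-449 it was 650.2 and 629.6 against 727.7 and 760.2 CPM in the cytoplasm, and 760.9 and 754.8 against 917.4 and 898.1 CPM in the nucleus. The siPANAD libraries lay above the NC libraries in each of the 4 pairs of groups, by a wider margin in HepG2. A few abundant genes carried much of the difference in means. UBE2L6, ISG15 and BST2 gave 31.9%, 24.4% and 17.7% of it in the HepG2 cytoplasm, TRIM25, ISG15 and UBE2L6 38.1%, 29.2% and 25.8% in the SNU-449 cytoplasm, and STAT2 alone 50.2% in the SNU-449 nucleus. In the HepG2 nucleus the top share was 15.3%, of PARP14. These are shares of the net difference, in which genes that fell count as negative. The shares of the genes that rose can therefore add up to more than 100%, as they did in the SNU-449 cytoplasm. Both sums and shares are before TMM scaling, which divides by a factor for each library. In the HepG2 nucleus the factors were 1.253 and 1.209 with NC and 1.397 and 1.357 with siPANAD, so scaling narrows that difference. In the HepG2 cytoplasm they were 0.7806 and 0.8167 with NC and 0.7404 and 0.7379 with siPANAD, the other way.

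Of the 41 genes, 36 passed the filter on low counts in HepG2 and 34 in SNU-449, and 30 passed in both. In the HepG2 cytoplasm 20 of 36 were called higher and 0 lower, where 47.9% of all genes tested were called, 23.7% higher and 24.2% lower. The median log2 fold change was 0.70 over these 36 genes. In the HepG2 nucleus 17 were called higher and 1, OAS1, lower, with a median of 0.60, where 45.6% of all genes were called, 22.0% higher and 23.6% lower. In the SNU-449 cytoplasm 15 of 34 were called higher and 4 lower, with a median of 0.23, where 39.7% of all genes were called, 19.6% higher and 20.1% lower. In the SNU-449 nucleus 11 were called higher and 5 lower, with a median of 0.14, where 46.0% of all genes were called, 22.1% higher and 23.9% lower. The medians over all genes tested lay between -0.03 and 0.04. Since a gene can pass the filter through the group in which it is high, these counts describe the genes that passed and not all 41. Without SNU-449 cytoplasm siPANAD replicate 2, the SNU-449 cytoplasm count fell from 19 called to 10, of which 8 were higher and 2 lower.

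**Figure D1:**
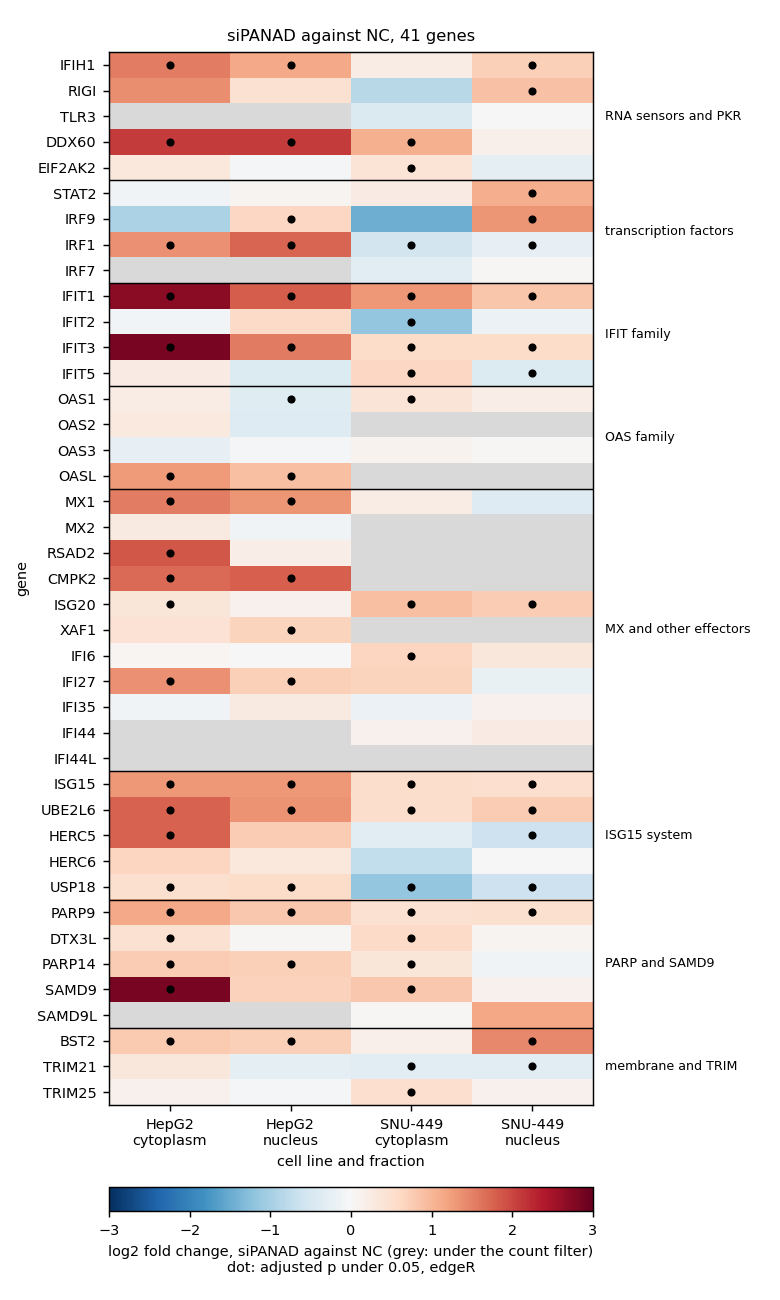
Log2 fold change, siPANAD against NC, of the 41 genes (rows, grouped by role) in the 2 fractions of the 2 lines (columns). Colour gives the fold change, a dot an adjusted p under 0.05, and grey a gene under the count filter. The HepG2 columns hold 20 and 17 dots in red cells and 1 in a blue cell, while the SNU-449 columns hold 15 and 11 dots in red cells and 4 and 5 in blue cells.

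Among the RNA sensors, IFIH1 (chr2:162267079-162318703, minus strand) encodes MDA5, which recognises long double-stranded RNA. It was at 5.86 and 4.81 CPM with NC and 15 and 15.4 CPM with siPANAD in the HepG2 cytoplasm. In the nucleus IFIH1 was at 8.71 and 6.54 CPM with NC and 18.2 and 15.3 CPM with siPANAD. The siPANAD values were above the NC values in both fractions without overlap, with log2 fold changes of 1.53 (SE 0.19, adjusted p = 2.3e-07) and 1.14 (SE 0.17, adjusted p = 6.1e-06). SNU-449 had IFIH1 at 6.82 and 5.6 CPM with NC and 7.04 and 7.37 CPM with siPANAD in the cytoplasm, and the change of 0.22 ± 0.18 was not called. The SNU-449 nuclear level was 5.42 and 5.41 CPM with NC and 9.19 and 8.52 CPM with siPANAD, a rise of 0.71 (SE 0.16, adjusted p = 3.7e-04). DDX60 (chr4:168216293-168318807, minus strand), a helicase-like protein studied as a cofactor of RIG-I-like receptors, began low in HepG2, at 0.289 and 0.162 CPM with NC and 1.04 and 0.784 CPM with siPANAD in the cytoplasm. Nuclear DDX60 was at 0.295 and 0.282 CPM with NC and 1.06 and 1.48 CPM with siPANAD. The groups were apart in both fractions, with rises of 2.09 (SE 0.57, adjusted p = 0.00346) and 2.10 (SE 0.44, adjusted p = 3.7e-04) on 4 to 33 counts a library. In HepG2 DDX60 passed the filter on low counts only through the siPANAD libraries, in which it was called higher. Its cytoplasmic call was lost without HepG2 cytoplasm NC replicate 2 (1.63). In the SNU-449 cytoplasm DDX60 was at 2.42 and 1.84 CPM with NC and 3.64 and 5.29 CPM with siPANAD, a rise of 1.07 (SE 0.26, adjusted p = 8.6e-04) that was lost without SNU-449 cytoplasm siPANAD replicate 2 (0.77). In the SNU-449 nucleus it was at 2.45 and 2.38 CPM with NC and 2.65 and 2.71 CPM with siPANAD, and 0.15 ± 0.23 was not called.

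RIGI (chr9:32455705-32526324, minus strand), the sensor of RNA with a 5′ triphosphate, had 0 to 2 counts in every cytoplasmic library of either line, so its cytoplasmic level could not be compared. In the HepG2 nucleus it was at 0.935 and 0.47 CPM with NC and 1.14 and 0.764 CPM with siPANAD, and 0.45 ± 0.44 was not called. The SNU-449 nuclear level was 1.55 and 1.62 CPM with NC and 3.46 and 2.37 CPM with siPANAD, a rise of 0.88 (SE 0.27, adjusted p = 0.00687). That call was lost with DESeq2 and without SNU-449 nucleus siPANAD replicate 1, at 0.57. Over the 2 NC libraries RIGI had 29 nuclear and 1 cytoplasmic count in HepG2, a depth-adjusted ratio of 26.9 with an exact 95% interval of 4.46 to 1100. In SNU-449 it had 74 against 2, a ratio of 22 with an interval of 5.87 to 185. TLR3, the endosomal sensor of double-stranded RNA, did not pass the filter in HepG2 and was at 0.715 to 2.19 CPM in SNU-449, with no call. EIF2AK2 (chr2:37099210-37157065, minus strand) encodes PKR, the kinase that stops translation when it binds double-stranded RNA. In the SNU-449 cytoplasm it was at 22.6 and 17.5 CPM with NC and 26 and 27.8 CPM with siPANAD, a rise of 0.42 (SE 0.13, adjusted p = 0.00869) that was lost without SNU-449 cytoplasm NC replicate 2 (0.28) or siPANAD replicate 2 (0.38). In the SNU-449 nucleus PKR mRNA was at 28.7 and 26.5 CPM with NC and 24.1 and 22.1 CPM with siPANAD, and -0.26 ± 0.12 was not called. The HepG2 levels were 33.1 and 30.7 CPM with NC and 42.1 and 37.1 CPM with siPANAD in the cytoplasm. They were 40.9 and 31.4 CPM with NC and 33.1 and 36.6 CPM with siPANAD in the nucleus, with neither HepG2 difference called.

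The transcription factors parted from each other and between the lines. IRF1 (chr5:132481609-132490798, minus strand), an early interferon-gamma target that itself activates many of these genes, was at 19.3 and 19.2 CPM with NC and 47.9 and 50.7 CPM with siPANAD in the HepG2 cytoplasm. In the nucleus IRF1 was at 15.2 and 16 CPM with NC and 52.5 and 51.6 CPM with siPANAD. In HepG2 the siPANAD libraries were far above the NC libraries, and IRF1 rose by 1.36 (SE 0.13, adjusted p = 3.6e-09) and 1.74 (SE 0.13, adjusted p = 5.1e-11). SNU-449 had IRF1 at 125 and 124 CPM with NC and 83.1 and 87.5 CPM with siPANAD in the cytoplasm. In its nucleus the level was 62.7 and 57.6 CPM with NC and 53 and 48 CPM with siPANAD. These groups did not overlap either, but in the other direction, and IRF1 fell, with changes of -0.54 (SE 0.10, adjusted p = 1.6e-05) and -0.25 (SE 0.10, adjusted p = 0.0294). The smaller SNU-449 nuclear call was lost without SNU-449 nucleus NC replicate 1 (-0.20), without SNU-449 nucleus siPANAD replicate 2 (-0.19) and with DESeq2. With NC, SNU-449 already held far more IRF1 than HepG2, by 2.67 (SE 0.12, adjusted p = 5.0e-25) in the cytoplasm, so that the siPANAD levels of the lines lay closer together than the NC levels. An antisense transcript, C5orf56, covers 22.0% of the exonic bases of IRF1, and without the strand setting of the counting its reads cannot be told apart.

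STAT2 (chr12:56341597-56360155, minus strand) is the subunit of ISGF3 that carries its main activation domain. It was at 12.1 and 14.7 CPM with NC and 12.2 and 13.1 CPM with siPANAD in the HepG2 cytoplasm, where the groups overlapped. Nuclear STAT2 was far higher, at 129 and 132 CPM with NC and 134 and 143 CPM with siPANAD. SNU-449 had STAT2 at 12.3 and 13.9 CPM with NC and 14 and 16.9 CPM with siPANAD in the cytoplasm. The SNU-449 nucleus, at 45.1 and 47.5 CPM with NC and 97.5 and 101 CPM with siPANAD, had the one wide gap, a rise of 1.10 (SE 0.10, adjusted p = 5.3e-11). The other 3 changes, -0.10 ± 0.15, 0.09 ± 0.12 and 0.24 ± 0.14, were not called. IRF9 (chr14:24161053-24166565, plus strand), the DNA-binding subunit of ISGF3, had 1 to 7 counts in each cytoplasmic library. It was at 4.92 and 4.61 CPM with NC and 6.46 and 8.18 CPM with siPANAD in the HepG2 nucleus. In the SNU-449 nucleus IRF9 was at 4.13 and 3.79 CPM with NC and 9.57 and 10.3 CPM with siPANAD. Both nuclear levels rose, by 0.62 (SE 0.21, adjusted p = 0.0208) and 1.32 (SE 0.18, adjusted p = 1.1e-07). The HepG2 call was lost with DESeq2 and without HepG2 nucleus NC replicate 1 (0.65), NC replicate 2 (0.55) or siPANAD replicate 2 (0.43). In GENCODE 29, 48.4% of the exonic bases of IRF9 are shared on the same strand with a longer transcript, AL136295.5, so its counts may be incomplete. IRF7, the main inducer of interferon-alpha genes, had 0 counts in both HepG2 cytoplasm NC libraries and 468 in the 2 SNU-449 ones. That is at least 214-fold higher in SNU-449, set against 3 counts over the group. No siPANAD difference of IRF7 was called in SNU-449, at -0.33 ± 0.14 and 0.04 ± 0.13.

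The IFIT proteins bind RNA that lacks the cap marks of the host, and IFIT3 stabilises IFIT1. Their 4 genes lie within chr10:89283694-89421001 in the order IFIT2, IFIT3, IFIT1, IFIT5, all on the plus strand, and responded differently. IFIT1 was at 1.59 and 1.62 CPM with NC and 9.68 and 11.4 CPM with siPANAD in the HepG2 cytoplasm. In the nucleus IFIT1 was at 2.36 and 1.69 CPM with NC and 7.43 and 6.92 CPM with siPANAD. The siPANAD libraries were the higher ones without overlap, with rises of 2.71 (SE 0.23, adjusted p = 5.3e-10) and 1.82 (SE 0.22, adjusted p = 1.9e-07). In SNU-449 IFIT1 was at 11.8 and 8.93 CPM with NC and 26.3 and 24.7 CPM with siPANAD in the cytoplasm and 4.26 and 3.66 CPM with NC and 6.71 and 7.38 CPM with siPANAD in the nucleus. Again no groups overlapped, and IFIT1 rose by 1.30 (SE 0.15, adjusted p = 6.5e-09) and 0.83 (SE 0.17, adjusted p = 1.4e-04).

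IFIT3 was at 2.53 and 3.64 CPM with NC and 21.8 and 24.1 CPM with siPANAD in the HepG2 cytoplasm. In the nucleus IFIT3 was at 3.15 and 3.34 CPM with NC and 9.3 and 9.79 CPM with siPANAD. The HepG2 cytoplasm showed the larger rise, 2.85 (SE 0.19, adjusted p = 6.7e-12), and the nucleus one of 1.55 (SE 0.19, adjusted p = 3.0e-07). In SNU-449 IFIT3 was at 8.43 and 6.95 CPM with NC and 10.8 and 11.7 CPM with siPANAD in the cytoplasm and 6.63 and 7.45 CPM with NC and 9.87 and 10.9 CPM with siPANAD in the nucleus. Here too no groups overlapped, with rises of 0.55 (SE 0.17, adjusted p = 0.00836) and 0.56 (SE 0.15, adjusted p = 0.00251). The SNU-449 calls of IFIT3 were lost without SNU-449 cytoplasm NC replicate 2 (0.44) or siPANAD replicate 2 (0.49) in the cytoplasm, and without SNU-449 nucleus siPANAD replicate 2 (0.48) in the nucleus.

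The genes at the outer ends of the cluster, IFIT2 and IFIT5, were not called in HepG2, and in SNU-449 IFIT5 was called higher in the cytoplasm, where IFIT1 and IFIT3 were too, and lower in the nucleus. IFIT2 was at 1.59 and 1.45 CPM with NC and 1.52 and 1.33 CPM with siPANAD in the HepG2 cytoplasm. In the nucleus IFIT2 was at 1.38 and 1.27 CPM with NC and 1.87 and 2.11 CPM with siPANAD, with no call. In SNU-449 IFIT2 was at 3.08 and 0.992 CPM with NC and 0.928 and 0.858 CPM with siPANAD in the cytoplasm and 4.13 and 3.7 CPM with NC and 3.33 and 3.56 CPM with siPANAD in the nucleus. The cytoplasmic change of -1.17 (SE 0.42, adjusted p = 0.0256) was called lower, but NC replicate 1 was far above NC replicate 2. Without SNU-449 cytoplasm NC replicate 1 the change was -0.16 and not called. The call was also lost without siPANAD replicate 1 (-1.21) or 2 (-1.11), and the value was -1.75 without NC replicate 2. IFIT5 was at 16.1 and 15.8 CPM with NC and 21.8 and 27 CPM with siPANAD in the SNU-449 cytoplasm, a rise of 0.62 (SE 0.14, adjusted p = 4.1e-04). In the SNU-449 nucleus IFIT5 was at 12.7 and 13.5 CPM with NC and 9.1 and 10.5 CPM with siPANAD, a fall with a log2 fold change of -0.42 (SE 0.14, adjusted p = 0.0119). The fall was not called without SNU-449 nucleus NC replicate 2 (-0.39) or siPANAD replicate 1 (-0.33). In HepG2 IFIT5 was at 6.36 and 6.79 CPM with NC and 7.84 and 7.76 CPM with siPANAD in the cytoplasm and 6.5 and 4.61 CPM with NC and 4.55 and 3.86 CPM with siPANAD in the nucleus, with neither difference called.

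**Figure D2:**
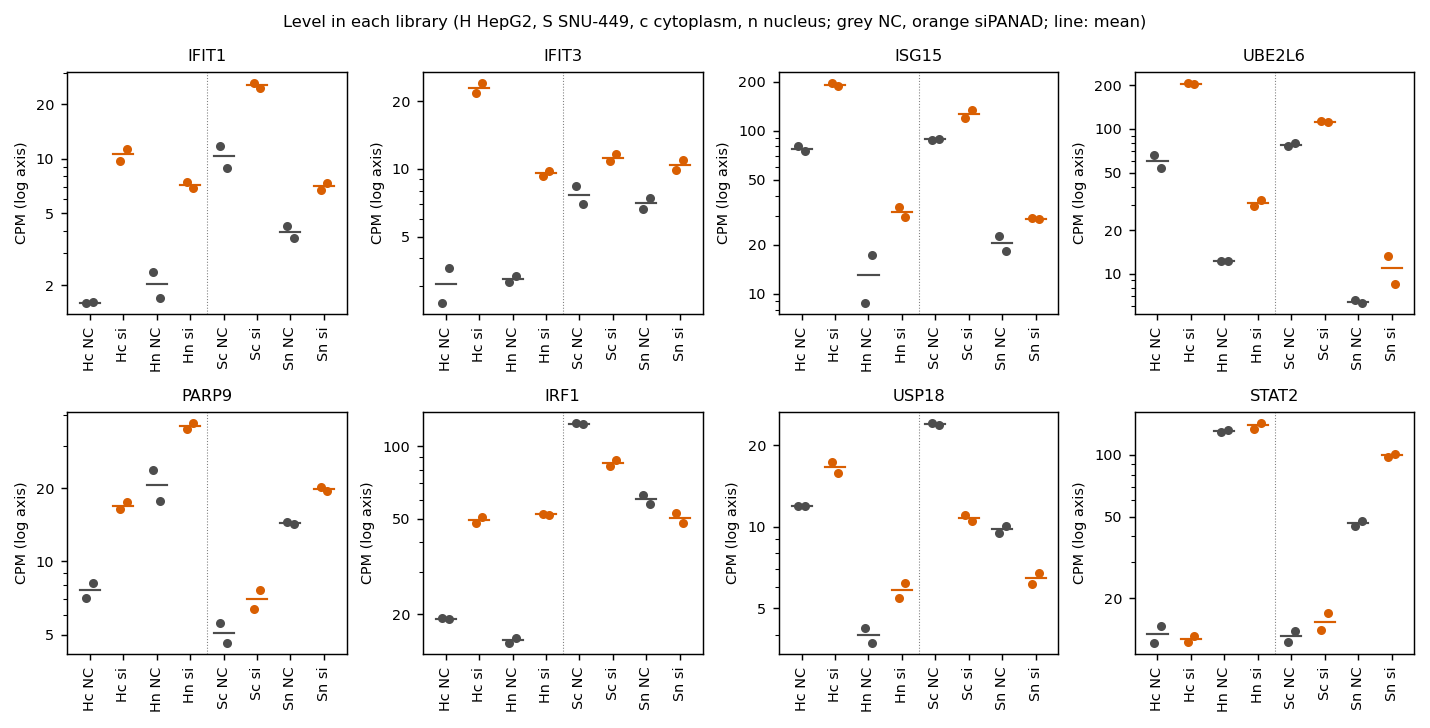
Level of 8 genes in every library (CPM, TMM-scaled within a line, log axis), grey for NC and orange for siPANAD, with a line at the mean of 2 libraries. IFIT1, IFIT3, ISG15, UBE2L6 and PARP9 have all siPANAD points above the NC points in each setting, IRF1 and USP18 have them above in HepG2 and below in SNU-449, and STAT2 has its widest gap in the SNU-449 nucleus.

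The OAS enzymes make 2-5A, the activator of RNase L, when they bind double-stranded RNA, and OASL is a family member without that activity. OASL (chr12:121019111-121039242, minus strand) was at 6.43 and 4.49 CPM with NC and 12.6 and 13.3 CPM with siPANAD in the HepG2 cytoplasm. In the nucleus OASL was at 2.51 and 3.06 CPM with NC and 5.2 and 5.26 CPM with siPANAD, higher by 1.28 (SE 0.20, adjusted p = 7.0e-06) and 0.91 (SE 0.22, adjusted p = 0.00125). In SNU-449 OASL stayed at or under 0.851 CPM and was not tested. OAS1 (chr12:112906777-112933222, plus strand) was at 24.6 and 22 CPM with NC and 29.8 and 31.3 CPM with siPANAD in the SNU-449 cytoplasm and 16 and 16.2 CPM with NC and 20.2 and 16.6 CPM with siPANAD in the nucleus, called only in the cytoplasm, at 0.39 (SE 0.13, adjusted p = 0.0123). That call was lost without SNU-449 cytoplasm NC replicate 2 (0.34) or siPANAD replicate 2 (0.36). In HepG2 OAS1 was at 36.1 and 37 CPM with NC and 40 and 45 CPM with siPANAD in the cytoplasm and 28.6 and 28.1 CPM with NC and 23.8 and 20.2 CPM with siPANAD in the nucleus. It fell in the nucleus, with a log2 fold change of -0.37 (SE 0.13, adjusted p = 0.0258), and that call was lost without HepG2 nucleus NC replicate 1 (-0.37), nucleus siPANAD replicate 2 (-0.27) or either cytoplasmic siPANAD library (-0.33 for both). OAS3, at 22.0 to 51.3 CPM over all libraries, and OAS2, at 0.128 to 1.18 CPM, were called in no siPANAD comparison in which they were tested.

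MX1 and MX2 encode GTPases that trap viral nucleocapsids and lie 10.9 kb apart on chromosome 21. MX1 (chr21:41420304-41459214, plus strand) was at 4.05 and 3.19 CPM with NC and 10.4 and 10.3 CPM with siPANAD in the HepG2 cytoplasm. In the nucleus MX1 was at 6.01 and 6.91 CPM with NC and 15.6 and 16.9 CPM with siPANAD, changes of 1.54 (SE 0.20, adjusted p = 3.7e-07) and 1.33 (SE 0.17, adjusted p = 4.8e-07). In SNU-449 MX1 was at 3.67 and 4.18 CPM with NC and 4.72 and 4.51 CPM with siPANAD in the cytoplasm and 3.01 and 2.55 CPM with NC and 2.22 and 2.03 CPM with siPANAD in the nucleus, and neither difference was called. MX2 had 969 counts in the HepG2 cytoplasm NC libraries and 0 in those of SNU-449, at least 236-fold higher in HepG2 against 3 counts over the group. With siPANAD no difference of MX2 was called in HepG2, at 0.27 ± 0.14 and -0.11 ± 0.14.

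CMPK2, a mitochondrial nucleotide kinase, and RSAD2, which encodes viperin and makes a chain-terminating nucleotide, form another divergent pair on chromosome 2, with 830 bases of overlap between their annotated ends. CMPK2 (chr2:6840570-6866635, minus strand) was at 1.81 and 1.29 CPM with NC and 4.48 and 5.25 CPM with siPANAD in the HepG2 cytoplasm. In the nucleus CMPK2 was at 0.443 and 0.564 CPM with NC and 1.71 and 1.84 CPM with siPANAD, higher by 1.69 (SE 0.27, adjusted p = 1.3e-05) and 1.80 (SE 0.35, adjusted p = 1.5e-04). RSAD2 was at 0.217 and 0.242 CPM with NC and 0.96 and 0.784 CPM with siPANAD in the HepG2 cytoplasm, higher by 1.87 (SE 0.54, adjusted p = 0.00587). In the nucleus RSAD2 was at 0.591 and 0.517 CPM with NC and 0.65 and 0.629 CPM with siPANAD, and 0.21 ± 0.42 was not called. The RSAD2 call rests on 3 to 12 counts a library and was lost with DESeq2 and without HepG2 cytoplasm siPANAD replicate 1 (1.68). In SNU-449 CMPK2 stayed at or under 0.367 CPM and RSAD2 at or under 0.0427 CPM, and neither was tested.

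ISG20 (chr15:88636153-88656483, plus strand), an exoribonuclease, was at 63.4 and 45.5 CPM with NC and 69.2 and 70.3 CPM with siPANAD in the HepG2 cytoplasm. In the nucleus ISG20 was at 16.8 and 16.9 CPM with NC and 19.3 and 17.9 CPM with siPANAD. In SNU-449 ISG20 was at 16.8 and 17.2 CPM with NC and 31.3 and 31.9 CPM with siPANAD in the cytoplasm and 5.59 and 6.17 CPM with NC and 10.1 and 9.71 CPM with siPANAD in the nucleus, with no overlap in either fraction. The HepG2 nuclear difference of ISG20 was not called, at 0.14 ± 0.15. It rose in SNU-449 by 0.90 (SE 0.13, adjusted p = 4.5e-07) and 0.75 (SE 0.14, adjusted p = 5.2e-05), and in the HepG2 cytoplasm by 0.36 (SE 0.14, adjusted p = 0.0331), a call that was lost in 6 of 14 alternatives. Among these were the omission of HepG2 cytoplasm NC replicate 2 (0.14), siPANAD replicate 1 (0.35) and siPANAD replicate 2 (0.32). IFI27, a small membrane protein gene, was at 1.23 and 1.41 CPM with NC and 3.04 and 3.84 CPM with siPANAD in the HepG2 cytoplasm. In the nucleus IFI27 was at 1.18 and 1.74 CPM with NC and 1.99 and 2.88 CPM with siPANAD, higher by 1.36 (SE 0.31, adjusted p = 6.4e-04) and 0.72 (SE 0.29, adjusted p = 0.0424). The nuclear call was lost with DESeq2 and without HepG2 nucleus NC replicate 1 (0.46) or siPANAD replicate 2 (0.43). In SNU-449 IFI27 was at 0.367 and 0.425 CPM with NC and 0.387 and 0.858 CPM with siPANAD in the cytoplasm and 3.79 and 3.87 CPM with NC and 3.55 and 3.01 CPM with siPANAD in the nucleus, with no call. IFI6, whose product acts on endoplasmic reticulum and mitochondria, was called only in the SNU-449 cytoplasm, at 13.8 and 12.8 CPM with NC and 21.4 and 20 CPM with siPANAD (0.64, SE 0.15, adjusted p = 7.0e-04). The SNU-449 nuclear IFI6 libraries were at 5.64 and 4.56 CPM with NC and 5.68 and 7.29 CPM with siPANAD. In HepG2 IFI6 was at 10.2 and 14.8 CPM with NC and 16.3 and 10.3 CPM with siPANAD in the cytoplasm and 2.61 and 5.22 CPM with NC and 4.51 and 3.32 CPM with siPANAD in the nucleus, and NC and siPANAD overlapped in both.

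XAF1, a pro-apoptotic gene, was called in the HepG2 nucleus, at 15.5 and 13.1 CPM with NC and 22.6 and 22.4 CPM with siPANAD (0.66, SE 0.15, adjusted p = 9.6e-04), and not in the cytoplasm, at 1.74 and 2.06 CPM with NC and 2.4 and 2.82 CPM with siPANAD. A transcript of the other strand, PRAL, covers 38.3% of the exonic bases of XAF1, and its reads cannot be told apart. IFI35 was among the most abundant of the 41 genes, at 66.6 to 79.8 CPM in the HepG2 and 154 to 179 CPM in the SNU-449 cytoplasm, and was called in no siPANAD comparison. IFI44 was called in none of the SNU-449 comparisons in which it was tested, and IFI44L had 0 to 6 counts a library and was tested in neither line.

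ISG15 is a ubiquitin-like protein that UBE2L6 and the ligase HERC5 attach to newly made proteins and USP18 removes. ISG15 (chr1:1001138-1014540, plus strand) was at 80.1 and 74.5 CPM with NC and 196 and 187 CPM with siPANAD in the HepG2 cytoplasm. In the nucleus ISG15 was at 8.76 and 17.2 CPM with NC and 34.1 and 29.7 CPM with siPANAD. Both are rises without overlap, of 1.31 (SE 0.21, adjusted p = 3.6e-04) and 1.29 (SE 0.23, adjusted p = 8.8e-04). In SNU-449 ISG15 was at 87.6 and 89.2 CPM with NC and 119 and 134 CPM with siPANAD in the cytoplasm and 22.6 and 18.2 CPM with NC and 29 and 28.6 CPM with siPANAD in the nucleus. The SNU-449 groups did not overlap either, and ISG15 rose by 0.52 (SE 0.10, adjusted p = 6.4e-05) and 0.50 (SE 0.11, adjusted p = 3.5e-04). UBE2L6 (chr11:57551656-57568284, minus strand) was at 65.8 and 54 CPM with NC and 208 and 203 CPM with siPANAD in the HepG2 cytoplasm. In the nucleus UBE2L6 was at 12.3 and 12.3 CPM with NC and 29.4 and 32.5 CPM with siPANAD. The E2 enzyme thus rose in both fractions, by 1.78 (SE 0.13, adjusted p = 2.8e-11) and 1.34 (SE 0.14, adjusted p = 2.2e-08). In SNU-449 UBE2L6 was at 76.5 and 79.4 CPM with NC and 113 and 111 CPM with siPANAD in the cytoplasm and 6.58 and 6.26 CPM with NC and 13.3 and 8.48 CPM with siPANAD in the nucleus. With siPANAD it was again above NC in every library, by 0.52 (SE 0.12, adjusted p = 7.5e-04) and 0.76 (SE 0.16, adjusted p = 2.5e-04). Without SNU-449 nucleus siPANAD replicate 1 the last of these was 0.39 and was not called.

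USP18, the deconjugating enzyme, was higher in both HepG2 fractions and lower in both SNU-449 fractions, while UBE2L6 was higher in all 4 and HERC5 was called higher only in the HepG2 cytoplasm and lower only in the SNU-449 nucleus. USP18 (chr22:18149899-18177397, plus strand), which also binds the interferon receptor and damps its signal, was at 11.9 and 11.9 CPM with NC and 17.4 and 15.8 CPM with siPANAD in the HepG2 cytoplasm. In the nucleus USP18 was at 4.23 and 3.72 CPM with NC and 5.44 and 6.2 CPM with siPANAD. Both are called rises without overlap, of 0.48 (SE 0.16, adjusted p = 0.0171) and 0.55 (SE 0.19, adjusted p = 0.0182). In SNU-449 USP18 was at 24.2 and 23.8 CPM with NC and 11.1 and 10.5 CPM with siPANAD in the cytoplasm and 9.51 and 10.1 CPM with NC and 6.15 and 6.74 CPM with siPANAD in the nucleus. Here the siPANAD libraries were the lower ones, with log2 fold changes of -1.15 (SE 0.14, adjusted p = 2.4e-08) and -0.61 (SE 0.14, adjusted p = 7.8e-04). The calls in HepG2 were lost with DESeq2. In the cytoplasm the call was also lost without HepG2 cytoplasm siPANAD replicate 1 (0.37) or 2 (0.52), and in the nucleus without HepG2 nucleus NC replicate 2 (0.44) or siPANAD replicate 2 (0.44).

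HERC5 (chr4:88457117-88506163, plus strand) was at 0.217 and 0.323 CPM with NC and 1.04 and 0.941 CPM with siPANAD in the HepG2 cytoplasm, a rise of 1.78 (SE 0.50, adjusted p = 0.00491). In the nucleus HERC5 was at 0.837 and 0.752 CPM with NC and 1.46 and 1.21 CPM with siPANAD, and 0.75 ± 0.35 was not called. In the SNU-449 cytoplasm HERC5 was at 2.35 and 3.69 CPM with NC and 2.32 and 2.5 CPM with siPANAD, where the groups overlapped. The SNU-449 nuclear level was 4.78 and 4.34 CPM with NC and 2.56 and 3.39 CPM with siPANAD, a fall with a log2 fold change of -0.61 (SE 0.21, adjusted p = 0.0143). The nuclear call was lost with DESeq2, without SNU-449 nucleus NC replicate 1 (-0.55) and without siPANAD replicate 1 (-0.43). Its neighbour HERC6, 14005 bases away, was at 0.387 to 2.43 CPM over all libraries and was not called in any siPANAD comparison.

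PARP9, an inactive ADP-ribosyltransferase, and DTX3L, its ubiquitin ligase partner, share the promoter stretch shown above on chromosome 3, and PARP14, an active enzyme of the same family, lies 105.4 kb further on. PARP9 (chr3:122527924-122564577, minus strand) was at 7.09 and 8.12 CPM with NC and 16.4 and 17.5 CPM with siPANAD in the HepG2 cytoplasm. In the nucleus PARP9 was at 23.8 and 17.7 CPM with NC and 35 and 37.2 CPM with siPANAD. It rose in HepG2 by 1.14 (SE 0.17, adjusted p = 3.2e-06) and 0.80 (SE 0.14, adjusted p = 6.5e-05). In SNU-449 PARP9 was at 5.57 and 4.61 CPM with NC and 6.34 and 7.65 CPM with siPANAD in the cytoplasm and 14.6 and 14.2 CPM with NC and 20.2 and 19.5 CPM with siPANAD in the nucleus. There it rose by 0.46 (SE 0.19, adjusted p = 0.0446) and 0.47 (SE 0.13, adjusted p = 0.00334), and in neither line did the groups overlap. The SNU-449 cytoplasm call was lost in 8 of 14 alternatives, among them SNU-449 cytoplasm NC replicate 2 left out (0.36) and siPANAD replicate 2 left out (0.32).

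DTX3L was at 17.9 and 18.9 CPM with NC and 26.2 and 24.1 CPM with siPANAD in the HepG2 cytoplasm. In the nucleus DTX3L was at 15.8 and 13.5 CPM with NC and 15.1 and 14.7 CPM with siPANAD. In SNU-449 DTX3L was at 10.6 and 9.21 CPM with NC and 14.1 and 15.2 CPM with siPANAD in the cytoplasm and 17.3 and 17.8 CPM with NC and 18.9 and 18.2 CPM with siPANAD in the nucleus. The cytoplasmic groups were apart in both lines, with rises of 0.45 (SE 0.14, adjusted p = 0.0105) and 0.57 (SE 0.15, adjusted p = 0.00194), and neither nuclear change was called, at 0.03 ± 0.14 and 0.08 ± 0.12. In HepG2 the cytoplasmic call of DTX3L was lost with no filter on low counts (0.37) and without HepG2 cytoplasm siPANAD replicate 1 (0.35) or 2 (0.48). PARP14 was at 11.2 and 11.8 CPM with NC and 19.4 and 19.7 CPM with siPANAD in the HepG2 cytoplasm. In the nucleus PARP14 was at 59.7 and 51.7 CPM with NC and 89.7 and 92.8 CPM with siPANAD, rises of 0.76 (SE 0.14, adjusted p = 1.0e-04) and 0.71 (SE 0.12, adjusted p = 3.7e-05). In SNU-449 PARP14 was at 12.3 and 12 CPM with NC and 15.8 and 15.5 CPM with siPANAD in the cytoplasm, a rise of 0.37 (SE 0.14, adjusted p = 0.0312). The SNU-449 nuclear PARP14 level was 34.6 and 34.1 CPM with NC and 33 and 30.7 CPM with siPANAD, not called. The SNU-449 cytoplasmic value kept within 0.36 to 0.38 in all alternatives, but its call was lost in 7 of 14, including the omission of any 1 of the 4 cytoplasmic libraries.

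SAMD9 (chr7:93099513-93118023, minus strand), a restriction factor of poxviruses, was at 0.145 and 0.0808 CPM with NC and 0.96 and 0.627 CPM with siPANAD in the HepG2 cytoplasm. These are 4 counts with NC and 20 with siPANAD, a depth-adjusted ratio of 7.64 with an exact 95% interval of 2.56 to 30.7, called higher (adjusted p = 0.00107, edgeR). In the HepG2 nucleus SAMD9 was at 0.935 and 0.564 CPM with NC and 1.26 and 1.17 CPM with siPANAD, not called. In SNU-449 SAMD9 was at 2.49 and 0.921 CPM with NC and 3.17 and 2.79 CPM with siPANAD in the cytoplasm, called at 0.81 (SE 0.32, adjusted p = 0.0428). The SNU-449 nuclear SAMD9 level was 2.15 and 1.75 CPM with NC and 2.27 and 2.03 CPM with siPANAD, not called. The 2 SNU-449 cytoplasm NC libraries were far apart. The change was 0.28, not called, without NC replicate 2 and 1.68 without NC replicate 1, and the call was lost in 7 of 14 alternatives, among them either siPANAD library left out. SAMD9L, its paralogue 12031 bases away, had too few counts in HepG2 to be tested and was not called in SNU-449.

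BST2 (chr19:17402939-17405648, minus strand) encodes tetherin, which holds budding virus at the cell surface. It was at 130 and 115 CPM with NC and 226 and 195 CPM with siPANAD in the HepG2 cytoplasm. In the nucleus BST2 was at 35.5 and 46.2 CPM with NC and 70.5 and 64 CPM with siPANAD, apart in both, with rises of 0.78 (SE 0.14, adjusted p = 3.9e-05) and 0.72 (SE 0.14, adjusted p = 1.8e-04). In SNU-449 BST2 was near absent, at 0.513 and 0.425 CPM with NC and 0.542 and 0.501 CPM with siPANAD in the cytoplasm and 0.258 and 0.128 CPM with NC and 0.427 and 0.636 CPM with siPANAD in the nucleus. The nuclear difference of 1.43 (SE 0.57, adjusted p = 0.0385) was called on 3 to 15 counts a library and was lost with no filter on low counts and when any 1 of the 4 nuclear libraries was left out (1.01 to 1.99). In SNU-449 BST2 passed the filter on low counts only through the nuclear siPANAD libraries, the group called higher. TRIM21, a cytosolic antibody receptor, was at 39.4 and 37.1 CPM with NC and 32.3 and 28.4 CPM with siPANAD in the SNU-449 cytoplasm and 22.4 and 23.1 CPM with NC and 18 and 17.8 CPM with siPANAD in the nucleus, lower in both (-0.34, SE 0.12, adjusted p = 0.0192, and -0.35, SE 0.12, adjusted p = 0.0131). The cytoplasmic call was lost without SNU-449 cytoplasm NC replicate 1 (-0.30) or siPANAD replicate 2 (-0.24). The nuclear one was lost without SNU-449 nucleus NC replicate 2 (-0.34) or either nuclear siPANAD library (-0.36 and -0.34). In HepG2 TRIM21 was at 13.7 and 12.1 CPM with NC and 16.2 and 16.1 CPM with siPANAD in the cytoplasm and 13.5 and 12.7 CPM with NC and 9.54 and 11.9 CPM with siPANAD in the nucleus, with no call. TRIM25, the ligase that acts on RIG-I, was at 110 and 126 CPM with NC and 160 and 177 CPM with siPANAD in the SNU-449 cytoplasm, higher by 0.51 (SE 0.09, adjusted p = 3.3e-05). The SNU-449 nuclear TRIM25 level was 147 and 153 CPM with NC and 169 and 161 CPM with siPANAD, not called. The HepG2 levels of TRIM25, 84.4 and 87.8 CPM with NC and 96.4 and 90.9 CPM with siPANAD in the cytoplasm and 103 and 114 CPM with NC and 107 and 103 CPM with siPANAD in the nucleus, did not differ by call.

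Across the 4 settings, IFIT1, IFIT3, ISG15, PARP9 and UBE2L6 were called higher in all, and 10 genes in at least 3. Of the 15017 genes tested in both lines, 4.14% were higher in all 4 settings and 10.9% in at least 3. Of the genes called higher in all 4, only IFIT1 and ISG15 kept every call under all alternatives that gave a value. Among the 10 genes, DDX60 in HepG2 and BST2 in SNU-449 passed the filter on low counts only through siPANAD libraries. The cytoplasm of both lines shared 10 genes called higher, IFIT1, IFIT3, ISG15, ISG20, PARP9, PARP14, DTX3L, SAMD9, DDX60 and UBE2L6, and 0 called lower, where 10.9% and 12.7% of all genes were. Only IFIT1, ISG15 and UBE2L6 among them kept both cytoplasmic calls under all alternatives that gave a value. IRF1 and USP18 were called in opposite directions between the lines in both fractions, as were 2.93% of all genes in the cytoplasm and 4.04% in the nucleus. The HepG2 calls of USP18 and the SNU-449 nuclear call of IRF1 were lost under some alternatives. In HepG2, 15 genes were called higher in both fractions, while in SNU-449 this held for 6, with 3 lower in both (IRF1, TRIM21 and USP18) and IFIT5 opposite between fractions. Higher in both fractions were 13.8% of all genes in HepG2 and 9.23% in SNU-449, where 12.3% were lower in both and 2.56% opposite. Called in none of the siPANAD comparisons in which they were tested were 9 genes: IFI35, IFI44, TLR3, MX2, OAS2, OAS3, IRF7, HERC6 and SAMD9L.

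Whether the lines differed was tested directly in 1 fit of all 16 libraries, with the HepG2 log2 fold change taken from that of SNU-449. In the cytoplasm 12 of 40 genes were lower on this scale and 0 higher. Of the 20459 genes tested 18.2% were called, 8.98% lower and 9.17% higher. Of the 40 genes 10 were under the count filter in the fit of 1 line and entered through the other line. Among the 30 tested in both lines 11 were lower and 0 higher, against 11.7% lower and 12.2% higher of the 15017 genes tested in both. CMPK2, under the filter in SNU-449, is the one that this leaves out. IFIT3 (-2.34, SE 0.26, adjusted p = 1.5e-09), IRF1 (-1.94, SE 0.16, adjusted p = 1.2e-12), USP18 (-1.67, SE 0.21, adjusted p = 6.7e-08) and IFIT1 (-1.45, SE 0.28, adjusted p = 1.3e-04) were among the 12 lower. MX1 (-1.36 ± 0.30), IFIH1 (-1.35 ± 0.26) and UBE2L6 (-1.30 ± 0.18) were called as well. For IFIT1, IFIT3, ISG15, PARP9 and UBE2L6 the rise was larger in HepG2 than in SNU-449. The ISG15 difference, -0.83 ± 0.26, was lost in 13 of 21 alternatives, among them the omission of any 1 of the 8 cytoplasmic libraries (range -0.93 to -0.73). The PARP9 difference, -0.72 ± 0.25, was lost in 9 of 21, among them without HepG2 cytoplasm NC replicate 1, either HepG2 cytoplasm siPANAD library, SNU-449 cytoplasm NC replicate 1 or siPANAD replicate 1 (range -0.87 to -0.57).

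In the nucleus 11 of 40 genes were lower and 3 higher by the same test. Of all genes 20.9% were called, 9.61% lower and 11.3% higher. Among the 30 genes tested in both lines 10 were lower and 3 higher, against 12.2% lower and 14.7% higher of all genes tested in both, XAF1 being the one left out. IRF1 (-2.01, SE 0.16, adjusted p = 2.4e-13), MX1 (-1.73, SE 0.28, adjusted p = 4.9e-06), DDX60 (-1.97, SE 0.50, adjusted p = 0.00282) and USP18 (-1.17, SE 0.23, adjusted p = 1.7e-04) were among those lower. STAT2 (0.99, SE 0.16, adjusted p = 6.2e-06), ISG20 (0.59, SE 0.21, adjusted p = 0.0337) and OAS1 (0.54, SE 0.18, adjusted p = 0.0255) were the 3 with a higher value in SNU-449. Of these the ISG20 call was lost when any 1 of the 8 nuclear libraries was left out (range 0.53 to 0.64). The OAS1 call was lost without HepG2 nucleus NC replicate 1 or siPANAD replicate 2, either SNU-449 nucleus NC library or SNU-449 nucleus siPANAD replicate 1 (range 0.40 to 0.67).

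**Figure D3:**
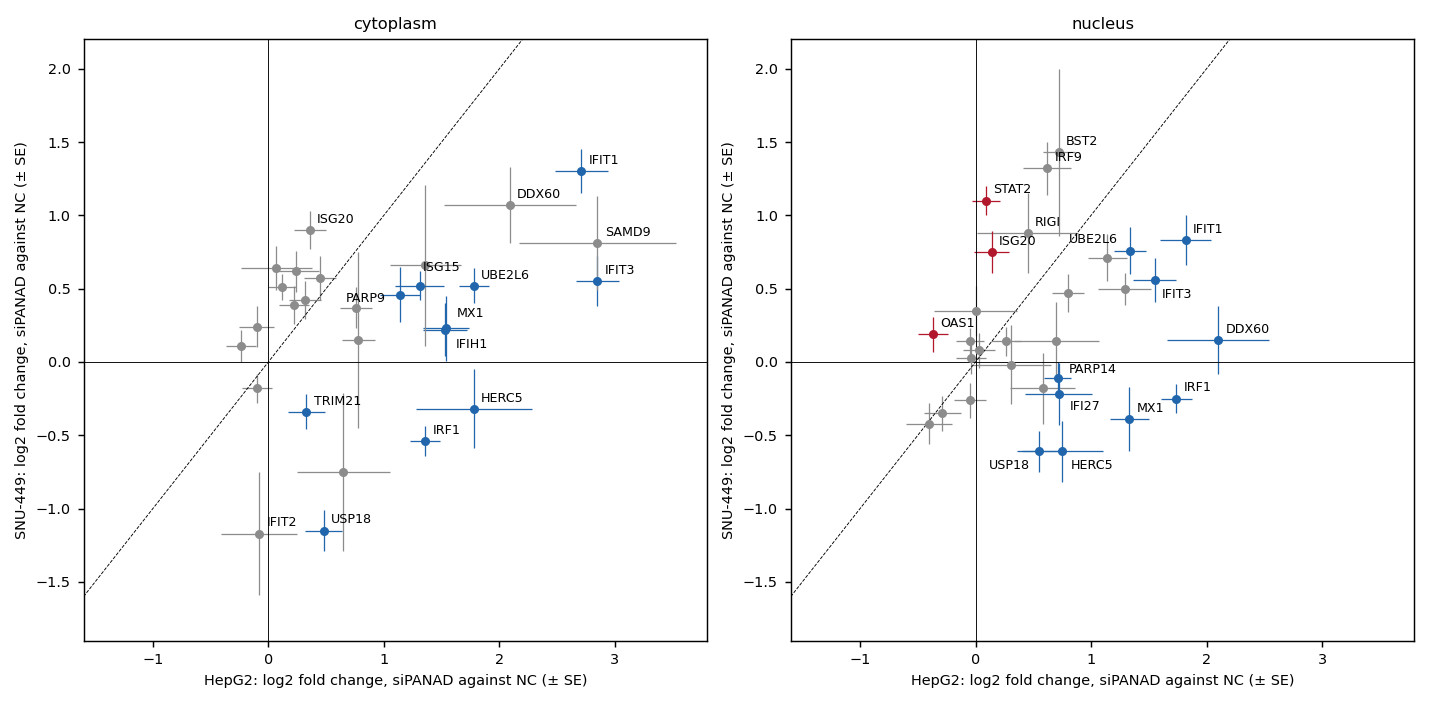
Log2 fold change, siPANAD against NC, in HepG2 (horizontal) and SNU-449 (vertical) for genes tested in both lines, cytoplasm left and nucleus right, with SE bars. Blue genes have a lower and red genes a higher effect in SNU-449 by the direct test, grey ones no call, and the dashed line marks equal effects. RIGI and IRF9 are left out of the cytoplasm panel for their few counts. IFIT1, IFIT3 and UBE2L6 lie below the dashed line and above 0 on both axes, and IRF1, HERC5 and USP18 lie below 0 in SNU-449.

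With NC, the genes with the highest levels were partly the same in the lines. Ranked per kb of exon in the NC cytoplasm, BST2 (110 CPM per kb), ISG15 (82.2), IFI35 (37.8) and UBE2L6 (27.3) led in HepG2, and ISG15 (93.9), IFI35 (89.4), UBE2L6 (35.5) and TRIM21 (19.8) in SNU-449. Between NC cytoplasms 14 of 40 genes were higher and 14 lower in SNU-449. Of all genes 71.2% were called, 34.3% higher and 36.9% lower, so these genes differed between the lines about as often as genes in general. Higher in SNU-449 were IRF1, IFIT1 (2.66, SE 0.22, adjusted p = 3.0e-15), HERC5 (3.36, SE 0.40, adjusted p = 1.9e-10), TRIM21 (1.55, SE 0.14, adjusted p = 2.2e-14) and USP18 (1.0, SE 0.15, adjusted p = 4.4e-08). Lower were BST2 (-8.03, SE 0.23, adjusted p = 1.5e-33), OASL (-3.88, SE 0.36, adjusted p = 1.1e-13), ISG20 (-1.69, SE 0.14, adjusted p = 1.2e-15) and DTX3L (-0.92, SE 0.15, adjusted p = 2.9e-07). ISG15, MX1, IFIH1 and STAT2 were at levels that did not differ by call, with log2 differences of 0.17 ± 0.19, 0.13 ± 0.22, 0.22 ± 0.19 and -0.07 ± 0.14.

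Each gene had its own balance between nucleus and cytoplasm in NC cells, on a scale relative to the typical gene. In HepG2, 12 of 36 genes were higher and 12 lower in the nucleus, where 77.1% of all genes were called, 39.4% higher and 37.7% lower. In SNU-449, 13 of 34 were higher and 12 lower, where 79.8% were called, 43.5% higher and 36.2% lower. The median over all genes was 0.04 in HepG2 and 0.22 in SNU-449. The RNAs of UBE2L6 (-2.28, SE 0.14, adjusted p = 1.5e-13 in HepG2 and -3.60, SE 0.14, adjusted p = 5.3e-19 in SNU-449) and ISG15 (-2.57, SE 0.24, adjusted p = 1.0e-06, and -2.11, SE 0.11, adjusted p = 1.8e-19) were cytoplasmic in both lines. So were those of IFI35 (-1.43 ± 0.13 and -2.22 ± 0.10) and ISG20 (-1.68 ± 0.15 and -1.53 ± 0.14). STAT2 (3.26, SE 0.14, adjusted p = 4.5e-16, and 1.82, SE 0.12, adjusted p = 2.4e-16), PARP14 (2.27 ± 0.14 and 1.5 ± 0.12) and PARP9 (1.43 ± 0.16 and 1.5 ± 0.16) were nuclear in both, as was IRF9. IRF9 had 198 nuclear and 12 cytoplasmic NC counts in HepG2, a depth-adjusted ratio of 15.3 (exact 95% interval 8.57 to 30.1). In SNU-449 it had 185 and 6, a ratio of 18.3 (8.26 to 50.5). Since 48.4% of its exonic bases are shared with AL136295.5, these counts may be incomplete. The ratios may then describe only part of the IRF9 RNA. DTX3L RNA was cytoplasmic in HepG2, at -0.33 ± 0.14, and nuclear in SNU-449, at 0.83 ± 0.14. Its HepG2 call was lost in 9 of 14 alternatives (range -0.46 to -0.23), among them the omission of HepG2 cytoplasm NC replicate 2, nucleus NC replicate 2 or either cytoplasmic siPANAD library. IFI27 was evenly spread in HepG2, at 0.13 ± 0.32, and nuclear in SNU-449, at 3.25 (SE 0.35, adjusted p = 1.8e-10). The difference between the lines in this balance was not tested.

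**Figure D4:**
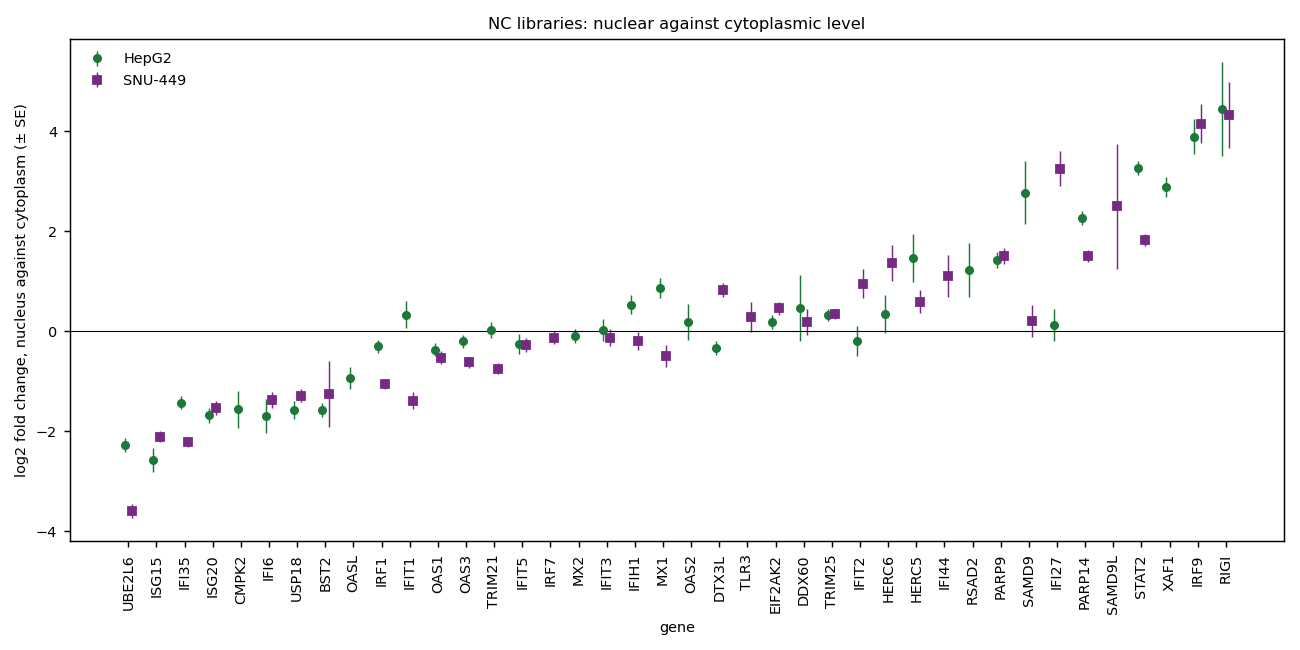
Log2 fold change of the nuclear against the cytoplasmic level in NC libraries, with SE bars, for HepG2 (circles) and SNU-449 (squares), genes ordered by the mean of the lines in which they were tested. UBE2L6 and ISG15 stand at the cytoplasmic end, and STAT2, IRF9 and RIGI at the nuclear end in both lines. The counts of IRF9 may be incomplete, since it shares exonic bases with AL136295.5.

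Whether siPANAD moved this balance was tested as the nuclear minus the cytoplasmic log2 fold change. In HepG2 the ratio fell for 2 of 36 genes and rose for 0, where 9.89% of all genes were called, 4.98% lower and 4.91% higher. The ratio of IFIT3 changed by -1.30 (SE 0.27, adjusted p = 0.00316) and that of OAS1 by -0.58 (SE 0.19, adjusted p = 0.0449). The OAS1 call was lost in 9 of 13 alternatives, among them the omission of either cytoplasmic siPANAD or any of the 4 nuclear HepG2 libraries (range -0.71 to -0.43), which left 1 gene called. Without HepG2 cytoplasm NC replicate 1 the count was 4. In SNU-449 the ratio rose for STAT2 (0.86, SE 0.17, adjusted p = 2.5e-04) and fell for IFIT5 (-1.04, SE 0.20, adjusted p = 1.5e-04), EIF2AK2 (-0.68, SE 0.18, adjusted p = 0.0047) and TRIM25 (-0.37, SE 0.13, adjusted p = 0.0439). These are 1 and 3 of 34 genes, where 20.2% of all genes were called, 9.69% higher and 10.5% lower. TRIM25 was lost in 7 of 13 alternatives (range -0.49 to -0.26), among them without SNU-449 cytoplasm NC replicate 1 or siPANAD replicate 2, nucleus NC replicate 2 or either nuclear siPANAD replicate. For IFIT1 the shift was -0.89 ± 0.33 in HepG2 and -0.47 ± 0.23 in SNU-449, and for ISG15 -0.02 ± 0.32 and -0.02 ± 0.15, none of them called.

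Genes with and without an ISRE core in the window can be set side by side as counts only. In the HepG2 cytoplasm 15 of 20 tested genes with the core were called higher, and 3 of 11 without it, with medians of 1.23 and 0.43. Of all tested genes with a window, 129 of 426 with the core and 2746 of 11002 without were called higher. In the SNU-449 cytoplasm the counts were 12 of 21 and 3 of 10, with medians of 0.46 and -0.07, against 22.9% and 22.1% of all genes with and without it. In the HepG2 nucleus they were 10 of 20 and 5 of 11, with medians of 0.72 and 0.45, against 26.8% and 22.1%. In the SNU-449 nucleus they were 7 of 21 and 4 of 10, against 25.3% and 22.2%, and there the median was lower with the core, 0.14, than without it, 0.48. Of the 6 genes with no window, 2 of 5 tested were higher in each HepG2 fraction and 0 of 3 in each SNU-449 fraction. For the GAS letters 6 of 9 genes with a match and 12 of 22 without were higher in the HepG2 cytoplasm, with medians of 0.78 and 0.9. In the SNU-449 cytoplasm the counts were 3 of 10 and 12 of 21, with medians of 0.19 and 0.46. In the nuclei 7 of 9 and 8 of 22 were higher in HepG2, with medians of 0.72 and 0.38. In the SNU-449 nucleus 2 of 10 and 9 of 21 were higher, with medians of 0.06 and 0.35. Of all genes with and without the GAS letters 255 of 951 and 2620 of 10477 were higher in the HepG2 cytoplasm, 205 of 1027 and 2427 of 10875 in the SNU-449 cytoplasm, and 24.4% and 22.1% in the HepG2 nucleus and 22.5% and 22.3% in the SNU-449 nucleus.

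Upstream of these genes, interferon RNA itself was scarce. The 22 interferon genes of types I, II and III summed to 3 to 28 counts a library in HepG2 and 0 to 2 in SNU-449, and IFNB1 had 0 to 2. IFNL1, a type III interferon made by liver and other epithelial cells, was the only one tested, in HepG2, with 4 and 3 counts in the NC and 8 and 11 in the siPANAD cytoplasm, a ratio of 4.15 (exact 95% interval 1.67 to 11.7). It was called there (adjusted p = 0.0112, edgeR) and not in the nucleus, with 7 and 9 against 24 and 12 counts, at 0.98 ± 0.48. IFNL1 passed the filter on low counts only through siPANAD libraries, so the call describes a gene admitted by the groups in which it was high. Beside the lists that follow, the shares of all genes called higher and lower were 23.7% and 24.2% in the HepG2 cytoplasm, 22.0% and 23.6% in the HepG2 nucleus, 19.6% and 20.1% in the SNU-449 cytoplasm and 22.1% and 23.9% in the SNU-449 nucleus. Of 16 receptor and signalling genes, 3 were higher and 4 lower in the HepG2 cytoplasm, 2 and 2 in the HepG2 nucleus, 1 and 6 in the SNU-449 cytoplasm and 0 and 4 in the SNU-449 nucleus. JAK1, the kinase shared by interferon receptors, was lower in all 4 settings (-0.56 ± 0.13, -0.35 ± 0.13, -0.36 ± 0.10 and -0.71 ± 0.09, in the order HepG2 cytoplasm, HepG2 nucleus, SNU-449 cytoplasm and SNU-449 nucleus). The feedback inhibitor SOCS3 was lower in 3 of the settings (-1.95 ± 0.33, -1.51 ± 0.30, -0.86 ± 0.09), the HepG2 fractions and the SNU-449 cytoplasm. STAT3, which carries interleukin-6 signals, was lower in the HepG2 cytoplasm (-0.48 ± 0.13) and both SNU-449 fractions (-1.15 ± 0.09 and -0.21 ± 0.09).

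Of 25 other sensing genes, 1 of 18 tested was higher and 3 lower in the HepG2 cytoplasm, 6 and 5 in the HepG2 nucleus, 3 and 1 of 21 in the SNU-449 cytoplasm and 8 and 3 in the SNU-449 nucleus. In the same order of settings, TRIM65, a ligase that acts on MDA5, was higher in all 4 (0.52 ± 0.13, 0.78 ± 0.13, 0.85 ± 0.10 and 0.49 ± 0.10). TRAF3, a signalling adaptor of MAVS, was lower in all 4 (-1.08 ± 0.13, -0.62 ± 0.13, -0.71 ± 0.10 and -0.32 ± 0.09). TICAM1, the TLR3 adaptor, was lower in 3 of the settings (-0.45 ± 0.16, -0.49 ± 0.16 and -0.28 ± 0.11 in HepG2 cytoplasm, HepG2 nucleus and SNU-449 nucleus). MAVS was lower in the SNU-449 nucleus (-0.48, SE 0.09, adjusted p = 7.7e-05) and not called elsewhere. IRF3 was lower in the HepG2 cytoplasm (-0.52, SE 0.13, adjusted p = 0.00185) and higher in the SNU-449 nucleus (0.54, SE 0.09, adjusted p = 4.5e-06), and ADAR, the RNA editor that masks self RNA from MDA5, was higher in the SNU-449 nucleus (0.29, SE 0.09, adjusted p = 0.00736) only.

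A further 60 interferon-stimulated genes outside the 41 gave 31 higher and 9 lower of 56 tested in the HepG2 cytoplasm, 27 and 7 in the HepG2 nucleus, 16 and 14 of 58 in the SNU-449 cytoplasm, and 18 and 11 in the SNU-449 nucleus. As shares these are 55.4% and 16.1%, 48.2% and 12.5%, 27.6% and 24.1%, and 31.0% and 19.0%, and in the SNU-449 cytoplasm both lie near those of all genes. Their medians were 0.50, 0.31, 0.07 and -0.02. Higher in all 4 settings, in that order, were BATF2 (0.78, 0.62, 3.56, 2.40), TMEM140 (1.28, 1.40, 0.78, 1.46), PARP10 (1.08, 1.31, 0.75, 0.51), RNF213 (0.63, 0.59, 0.54, 0.58) and the guanylate-binding protein gene GBP3 (1.85, 1.84, 0.58, 0.46). APOL1, the trypanosome lytic factor, was lower in all 4 (-0.90, -0.55, -1.34, -0.68). In the direct test of the lines 23 of 59 of these genes were lower and 1 higher in the cytoplasm, against 8.98% and 9.17% of all genes.

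Of 22 NF-kB targets and cytokines, 4 were higher and 5 lower of 14 tested in the HepG2 cytoplasm, 2 and 3 in the HepG2 nucleus, 7 and 4 of 19 in the SNU-449 cytoplasm and 8 and 3 in the SNU-449 nucleus. The inhibitors TNFAIP3 (0.99, 0.85, 1.02, 1.24) and NFKBIA (0.78, 0.86, 0.24, 0.36) were higher in all 4. ICAM1, an adhesion molecule, was lower in both HepG2 fractions (-1.98, SE 0.16, adjusted p = 2.8e-10, and -1.67, SE 0.16, adjusted p = 4.8e-09) and in the SNU-449 cytoplasm (-1.22, SE 0.10, adjusted p = 1.4e-11). Genes on the opposite strand share 23.6% of its exonic bases, and whether the counting used strand is not given in the sources used here.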

How the data were processed

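Cytoplasmic and nuclear RNA was measured in 16 libraries of 2 cell lines. The values are raw read counts per gene as deposited by the authors, in 1 table per line, with directional libraries per the labels' protocols. Per the submitters' processing notes, Trim Galore 0.6.4 and HISAT2 2.2.1 were used with the hg38 genome; how reads were counted (program, annotation release, strand) is not given in the sources used here. Of 67938 identifiers, 61444 had a symbol. ANK2, broken over several lines in both tables, was left out.

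Groups came from the sample titles. Counts were fitted in R 4.3.3 with edgeR 4.0.16 (filterByExpr, minimum count 10; TMM; glmQLFit, robust; glmQLFTest, two-sided) over the 8 libraries of a line with 1 mean per group, and over all 16 for differences between lines. The fits tested 17499, 17895 and 20459 genes in HepG2, SNU-449 and both, with biological coefficients of variation of 0.101, 0.0728 and 0.0891. P-values were adjusted over all genes by Benjamini-Hochberg, with a threshold of 0.05. Every adjusted p printed is edgeR's. The scripts were tested on simulated data. TMM assumes that most genes do not differ, so a shift of nearly the whole transcriptome would not show. Positions, exon lengths and overlaps are from GENCODE 29 (GRCh38), promoters from RefSeq (GRCh38.p14).

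Alternatives were RLE scaling, DESeq2 1.42.0, no filter, a minimum count of 30, only the 2 groups compared, a replicate block, and each library left out in turn. Values in every library are given for genes called in the cytoplasm of a line and, chosen after values were seen, for some called only in a nucleus (STAT2, RIGI, IRF9 and XAF1), and other genes mostly by range; of each pathway list at most 6 genes are named, those called alike in most siPANAD comparisons. ADAR, IRF3, MAVS, IFNB1 and MALAT1 were checked whatever their values; others so checked are not reported here. Promoters are printed for at most 6 genes with and 2 without the ISRE core, by HepG2 cytoplasm fold change; the shorter stretches and the GAS search were added after values were seen. The genes, the pathway lists and the marker lists were chosen with earlier results of these data known.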

Additional observations from a re-analysis of the deposited data

Results flagged for a closer look

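The effect of siPANAD differed between the lines by the direct test for 12 of the genes in the cytoplasm and 14 in the nucleus. The values below are the SNU-449 minus the HepG2 log2 fold change. In the cytoplasm they were -1.45 for IFIT1, -2.34 for IFIT3, -1.35 for IFIH1, -0.83 for ISG15, -1.36 for MX1, -1.30 for UBE2L6 and -0.72 for PARP9, and the HepG2 change was an increase in each of these 7. They were -1.94 for IRF1 and -1.67 for USP18, which were called in opposite directions in the lines. The USP18 call in HepG2 was lost with DESeq2 and without either HepG2 cytoplasm siPANAD library. TRIM21, at -0.71, was lower in SNU-449 and not called in HepG2, HERC5, at -2.14, was higher in HepG2 and not called in SNU-449, and CMPK2, at -3.19, had at most 5 counts a library in SNU-449 and was not called in 9 of 20 alternatives.

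In the nucleus the differences were -1.01 for IFIT1, -1.01 for IFIT3, -0.96 for IFI27, -1.73 for MX1, -0.84 for PARP14, -1.97 for DDX60 and -0.59 for UBE2L6. They were -2.01 for IRF1, -1.17 for USP18, -1.38 for HERC5 and -3.16 for XAF1, the last with at most 5 counts a library in SNU-449. The difference was positive for STAT2 at 0.99, ISG20 at 0.59 and OAS1 at 0.54. The IFI27 difference was lost in 12 of 21 alternatives, among them the omission of any 1 of the 8 nuclear libraries except HepG2 nucleus NC replicate 2 and siPANAD replicate 1 (range -1.27 to -0.68). The UBE2L6 difference was lost in 7 of 21, and was -0.30 without SNU-449 nucleus siPANAD replicate 2. That of HERC5 was lost in 3 of 21 and that of XAF1 in 3 of 21, while that of IFIT1 was lost without HepG2 nucleus NC replicate 2 (-0.79).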

How the results depend on the processing

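Of 182 calls of the 41 genes over 11 comparisons, 129 held under all alternatives that gave a value, 53 were lost under at least 1 and 0 reversed. In HepG2 the count of genes with a shifted nucleus to cytoplasm ratio went from 2 to 1 with DESeq2, with no filter on low counts and with the replicate block, and in SNU-449 it went from 4 to 8 with a minimum count of 30. When each library was left out in turn, the counts of called genes ranged from 16 to 21 in the HepG2 cytoplasm, 14 to 19 in the HepG2 nucleus, 10 to 19 in the SNU-449 cytoplasm and 11 to 16 in the SNU-449 nucleus. They ranged from 1 to 4 and 3 to 6 for the ratio shifts, 20 to 23 and 21 to 27 for nucleus against cytoplasm in NC, 25 to 28 for the NC cytoplasms of the lines, and 9 to 13 and 10 to 15 for the line differences in cytoplasm and nucleus, HepG2 before SNU-449 where both lines apply. Replicate numbers shared by groups gave no clear sign of pairing, which low correlations cannot exclude. Deviations of same-numbered libraries correlated at 0.00223 and -0.0462 between NC and siPANAD in the HepG2 cytoplasm and nucleus. In SNU-449 these values were -0.0107 and 0.0845. Between cytoplasm and nucleus they were 0.0497 with NC and 0.0304 with siPANAD in HepG2, and -0.024 and 0.000274 in SNU-449. The largest in size was -0.125, between HepG2 cytoplasm NC and HepG2 nucleus siPANAD. With the replicate block 20, 18, 18 and 16 genes were called in the 4 siPANAD comparisons. Where 1 library was left out, the remaining library of that group was assumed to vary like the other groups.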
